A study of Mus musculus with 36 samples.

Results

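A set of 6 genes known from the apical ectodermal ridge of the mouse limb bud were examined as 5 genome windows: Fgf8, Fgf4, Sp8, Dlx5 together with Dlx6, and Trp63. The members were all H3K27ac peaks that overlapped these windows. The windows were set by gene and position, but with earlier results of these data known. The windows spanned chr19:45700000-45950000 for Fgf8, chr7:151950000-152150000 for Fgf4, chr12:119950000-120250000 for Sp8, chr6:6700000-6950000 for Dlx5 and Dlx6, and chr16:25600000-26000000 for Trp63, all in build mm9. They held 571 peaks over 18 libraries and 49 of the 63594 consensus regions of the genome. A consensus region is a stretch covered by peaks of at least 2 libraries. Stretches called in 1 list alone are thus left out, and with them the windows held 58 regions.

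The ridge is a thin strip of thickened ectoderm along the distal rim of the limb bud, and it signals to the mesenchyme beneath it. Fgf8 and Fgf4 encode the secreted fibroblast growth factors of that signal, which keep distal mesenchyme proliferating and sustain limb outgrowth. Sp8, Dlx5, Dlx6 and Trp63 encode transcription factors that form or maintain the ridge: Sp8 is a zinc finger protein, Dlx5 and Dlx6 are homeobox proteins, and p63, the product of Trp63, maintains the epithelium as a whole.

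Histone H3 acetylated at lysine 27, found at active promoters and enhancers, was mapped by ChIP-seq in whole forelimbs of FVB mouse embryos at embryonic day 11.5. Each library came from forelimbs pooled over embryos. The groups were 6 enhancer knockout lines, mm1179 KO with 4 libraries and hs72 KO, hs1262 KO, hs1467 KO, hs1586 KO and hs1603 KO with 2 each, and untreated wild type (WT) with 4. Each knockout removes the limb enhancer that gives the line its name, and the question was what that loss does to the rest of the landscape. None of the labels ties an enhancer to a ridge gene, and whether any of the 6 enhancers lies in a window was not determined. Ectoderm was not separated from mesenchyme. A weak peak in few cells and a weaker mark in many cells cannot be told apart in these lists.

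The names of the lists carry 1 of 4 tags that the labels do not mention, called runs here. Run 1 held replicates 1 and 2 of mm1179 KO and WT, and run 2 held replicates 3 and 4 of both plus the hs72 KO libraries. Run 3 held replicate 1, and run 4 replicate 2, of hs1262 KO, hs1467 KO, hs1586 KO and hs1603 KO. With no WT library in runs 3 and 4, run and genotype cannot be told apart for these 4 lines in any comparison with WT. List length went from 26550 to 58753 peaks. Run 3 lists held 26550 to 32472 peaks and run 4 lists 54375 to 58753. Read depth is unknown, so a missing peak is a call that was not made and does not show that the mark was absent. The strength of a peak is given as its score percentile, its rank by the authors' score within its own list, where 100 is the top and 0 stands for no call.

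The peak lists carry positions without sequence, and an mm9 genome was not used here. Promoter sequences from RefSeq (GRCm38.p6, 250 bases before to 50 after a start) were found for 2 of the 6 genes, Fgf4 and Sp8. They are shown because these are the windows with the highest and the lowest percentiles in WT, and because their content of CG dinucleotides, the hallmark of CpG island promoters, differs between starts. They are on another build than the peaks, so none was placed at a peak. Capitals mark CG, and all are on the plus strand.
Fgf4 start 1: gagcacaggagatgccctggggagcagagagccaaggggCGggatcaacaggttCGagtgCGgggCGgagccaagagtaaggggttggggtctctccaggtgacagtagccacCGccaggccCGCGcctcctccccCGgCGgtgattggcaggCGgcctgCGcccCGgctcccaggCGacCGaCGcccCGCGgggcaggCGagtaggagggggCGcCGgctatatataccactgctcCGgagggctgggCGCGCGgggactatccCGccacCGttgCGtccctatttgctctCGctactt
Sp8 start 1: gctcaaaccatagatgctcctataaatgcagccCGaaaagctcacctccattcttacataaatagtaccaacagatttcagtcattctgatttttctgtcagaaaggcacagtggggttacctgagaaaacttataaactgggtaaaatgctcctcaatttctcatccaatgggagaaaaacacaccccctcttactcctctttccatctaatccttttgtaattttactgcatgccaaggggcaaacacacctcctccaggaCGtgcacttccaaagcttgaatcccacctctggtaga
Sp8 start 2: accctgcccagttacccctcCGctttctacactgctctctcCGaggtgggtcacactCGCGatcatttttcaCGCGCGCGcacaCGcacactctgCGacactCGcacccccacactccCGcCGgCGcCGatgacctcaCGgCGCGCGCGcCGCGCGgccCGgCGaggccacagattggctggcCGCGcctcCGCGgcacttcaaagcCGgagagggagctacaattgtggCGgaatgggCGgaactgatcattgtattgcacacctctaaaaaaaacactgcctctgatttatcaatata
Sp8 start 3: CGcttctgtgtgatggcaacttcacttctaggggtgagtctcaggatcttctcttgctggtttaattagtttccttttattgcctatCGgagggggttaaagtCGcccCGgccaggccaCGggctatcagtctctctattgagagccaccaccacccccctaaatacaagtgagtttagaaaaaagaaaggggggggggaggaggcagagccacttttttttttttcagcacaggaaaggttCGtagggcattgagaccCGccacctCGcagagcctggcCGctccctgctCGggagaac

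The Fgf4 promoter held 28 CG and Sp8 start 2 held 32, more than 85.8% and 90.5% of the 32851 promoter entries of the table, whose median was 7. Sp8 start 3 held 10 CG and Sp8 start 1 held 2, below the median of the table. The letters GGGCGG, the core of a GC box, searched on both strands, stood 2 times in the Fgf4 promoter, 1 time in Sp8 start 2 and in neither other Sp8 entry, against 35.7% of all entries with at least 1. So Sp8 has a CG-rich and a CG-poor start among its annotated promoters.

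The 5 windows were marked very unequally in whole forelimb. Peaks of WT libraries covered on average 8.67% of the Fgf8 window, 7.51% of the Fgf4 window, 3.68% of the Trp63 window, 1.52% of the Dlx5 and Dlx6 window and 0.181% of the Sp8 window. Ranked by the same share among 10539 tiles of 250 kb across the genome, the Fgf8 window stood above 89.1% of tiles and the Fgf4 window above 86.3%. The Trp63 window stood above 69.7%, the Dlx5 and Dlx6 window above 51.8% and the Sp8 window above 32.3%. The median tile was covered over 1.36% of its length. The Fgf8 and Fgf4 windows thus ranked well above a typical stretch of genome, the Dlx5 and Dlx6 window near the middle and the Sp8 window below it.

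Most window regions, like most regions of the genome, were called in part of the lists, with a median of 12 lists in the windows and 11 over all regions. All 18 lists called 4 of the 49 regions (8.16%), against 16.5% of all regions. Without run 1, the other lists all called 10 (20.4%), against 21.4% of all regions. In WT, 14 regions (28.6%) were called in all 4 lists, against 36.4% of all regions, and 8 (16.3%) were called in none, against 23.5%. The median WT score percentile was 16.4 over the window regions and 12.9 over all regions, and the median width was 2624 bp against 2339 bp. Mean WT percentile was at least 50 in 9 window regions (18.4%, against 26.5% of all regions) and at least 90 in 1 (2.04%, against 5.51%), which lay in the Fgf4 window. Peaks of the windows in WT ran from 860 to 6656 bp with a median of 1771 bp, close to the medians of the 4 whole WT lists, 1749 to 1910 bp.

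**Figure D1:**
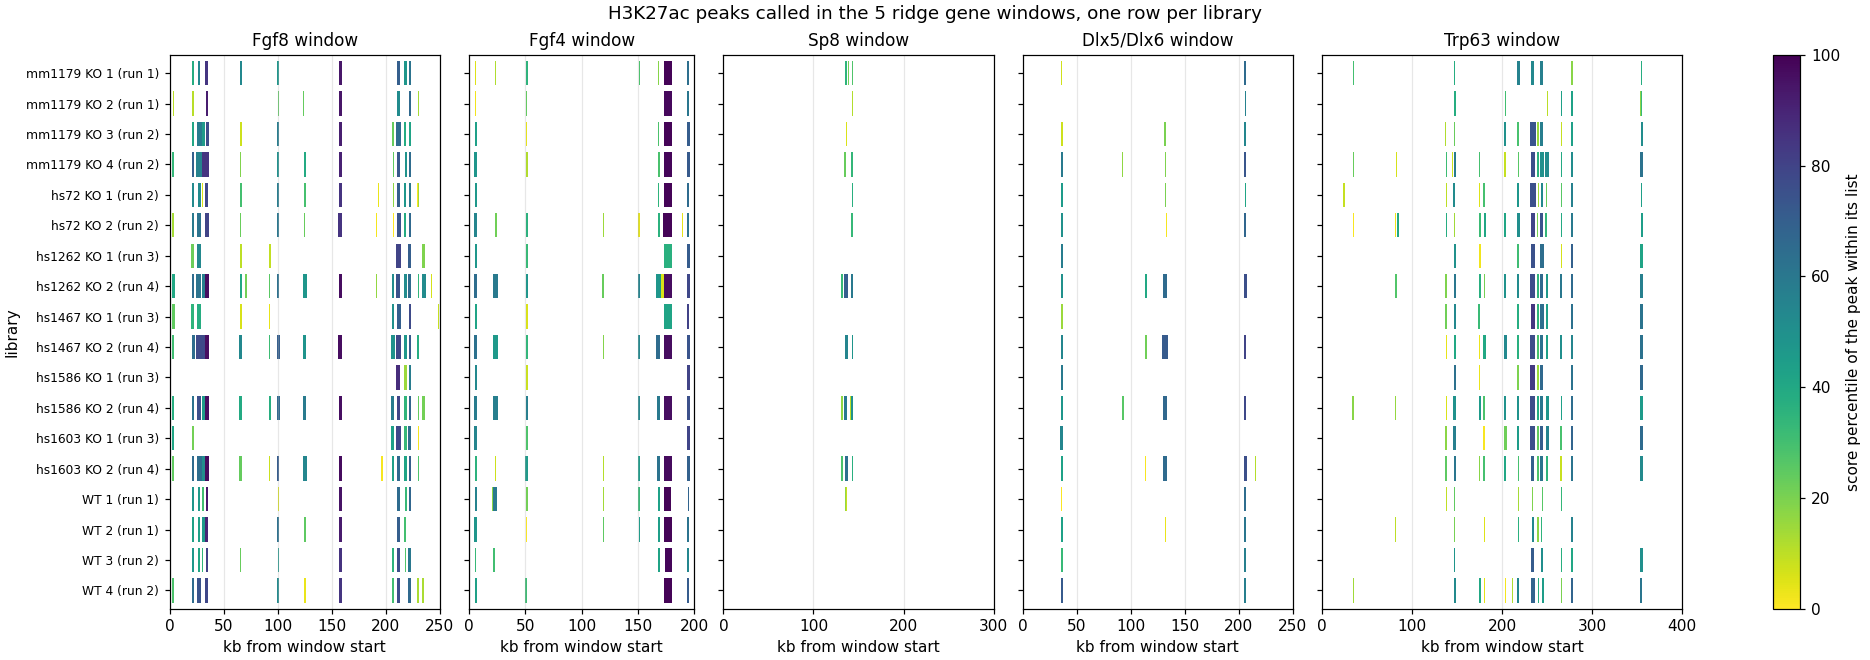
Peaks of each library along the 5 windows, with distance from the window start in kb on the x axis and 1 row per library, knockout lines above WT and coloured by score percentile. Calls at Sp8 are limited to 13.5 kb of a 300 kb window, while those at Fgf8 reach across nearly the whole window.

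The Fgf8 window held 17 regions, named a to q by position, more than any other. Fgf8 is the ridge ligand made along the whole length of the ridge. In the RefSeq annotation of GRCm38 its nearest protein-coding neighbours are Fbxw4 and Dpcd on one side and Npm3, Oga, Kcnip2 and Armh3 on the other. Which gene a peak of the window belongs to cannot be told apart here, since no mm9 annotation was used.

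Peaks covered 19.6, 15.5, 26.996 and 34.3 kb of the Fgf8 window in mm1179 KO libraries 1 to 4 and 27.9 and 28.3 kb in the hs72 KO libraries, against 18.5, 21.0, 22.1 and 25.1 kb in WT libraries 1 to 4. The mm1179 KO values reached below and above those of WT. The mean was 24.1 ± 8.32 kb in mm1179 KO and 21.7 ± 2.74 kb in WT (SD, n = 4 each), a difference of 2.42 kb that did not pass the exact two-sided permutation test (p = 0.629). Within runs the means were 17.5 kb in mm1179 KO and 19.7 kb in WT in run 1, and 30.7 kb in mm1179 KO and 23.6 kb in WT in run 2, so the direction differed between runs. Without mm1179 KO replicate 4 the difference was -0.986 kb. For all tests of 4 against 4 libraries the smallest possible p is 0.0286.

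The highest ranked peak of the Fgf8 window in WT lay in Fgf8-j, chr19:45856058-45859437, called in 14 libraries. The consensus region was 3380 bp wide, and peaks there measured 2425, 2803, 2860 and 3126 bp in full length in WT. Its percentile was 93.9, 94.4, 91.5 and 90.7 in mm1179 KO and 85.1 and 84.8 in hs72 KO, against 95.2, 92.7, 85.2 and 84.5 in WT. The groups overlapped, and within WT both run 1 libraries stood above both run 2 libraries. In run 4 it reached 96.7, 96.9, 96.5 and 96.9 in hs1262 KO, hs1467 KO, hs1586 KO and hs1603 KO, and in run 3 the same 4 lines had no call.

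Fgf8-e, chr19:45732859-45736122, showed the same set of calls as Fgf8-j. It had percentiles of 84.5, 91.9, 77.3 and 84.8 in mm1179 KO and 78.3 and 79.8 in hs72 KO, against 93.7, 90.2, 80.8 and 78.8 in WT. In run 4 it stood at 96.5 to 96.9 in the 4 lines, and none of their run 3 lists called it. Both regions were thus among the strongest peaks of the window in 14 lists and missing from the same 4.

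Fgf8-m, chr19:45909489-45913669, was called in all 18 lists. It stood at 70.3, 52.1, 65.0 and 72.4 in mm1179 KO and 70.5 and 74.4 in hs72 KO, against 65.6, 69.9, 76.1 and 76.9 in WT. In run 3 it stood at 79.9, 70.1, 87.2 and 78.5, and in run 4 at 74.8, 78.8, 79.6 and 66.4, in the order hs1262 KO, hs1467 KO, hs1586 KO and hs1603 KO. Fgf8-m kept a middle to high rank in each run, unlike Fgf8-j and Fgf8-e.

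Fgf8-c, chr19:45724176-45729666, was the widest consensus region of the window at 5491 bp, where peaks measured 2213 to 2924 bp in full length in WT. It was called in 15 lists, at 53.5, 0, 58.5 and 55.5 in mm1179 KO, 52.7 and 61.8 in hs72 KO and 45.8, 43.3, 40.8 and 74.3 in WT. The missing calls were mm1179 KO replicate 2 and the run 3 libraries of hs1586 KO and hs1603 KO.

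The Fgf4 window held 9 regions, among them the highest ranked peak of the 5 windows in runs 1 and 2. Which gene that peak or any other of the window belongs to cannot be told here. The longest stretch without a peak in any list, chr7:152002170-152068461, was 66.3 kb, 33.1% of the window. Fgf4 is the ligand of the posterior ridge, and its neighbours in GRCm38 are Fgf3, another fibroblast growth factor gene, and Ano1 on one side, and Fgf15, also a member of that family, LTO1, Ccnd1 and Tpcn2 on the other. Peaks covered 14.9, 10.7, 13.3 and 14.7 kb of the window in mm1179 KO and 12.1 and 20.1 kb in hs72 KO, against 19.3, 16.2, 12.3 and 12.3 kb in WT. The means were 13.4 ± 1.91 kb in mm1179 KO and 15.02 ± 3.41 kb in WT (SD, n = 4 each), a difference of -1.62 kb (exact permutation p = 0.429). The 2 WT libraries of run 1 were the highest of the 8 mm1179 KO and WT values, and the within-run means were 12.8 kb in mm1179 KO and 17.8 kb in WT in run 1 but 13.99 kb in mm1179 KO and 12.3 kb in WT in run 2.

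Fgf4-h, chr7:152122818-152130103, was the widest region of the 5 windows at 7286 bp and the top peak of the Fgf4 window in runs 1, 2 and 4. Its percentile was 99.2, 97.7, 99.1 and 98.5 in mm1179 KO and 99.2 and 98.9 in hs72 KO, against 99.1, 99.1, 98.6 and 99.2 in WT. In 6 of these 8 mm1179 KO and WT lists, all but mm1179 KO replicate 2 and WT replicate 3, the peak lay in a block of peaks tied at a score of 3100, so its percentile is set by the size of that block and gives no comparison of strength between the groups. Its peak was 6280 to 6686 bp wide in mm1179 KO and 6284 to 6656 bp wide in WT, well above the medians of 3632.5 to 4193 bp for peaks at or above the 90th percentile of the WT lists.

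In run 3, Fgf4-h was called in hs1262 KO at 36.7 and in hs1467 KO at 41.4, and not in hs1586 KO or hs1603 KO. In run 4 the same 4 lines had it at 96.7, 96.9, 96.5 and 96.9. The run 3 peaks were as wide as those of run 4, 7065 and 6921 bp in the 2 run 3 lists with a call and 7106 to 7153 bp in run 4. The region therefore differed in rank between runs where it was called, with little difference in width.

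The next regions of the window by WT rank, Fgf4-i and Fgf4-a, were called in all 18 lists and were narrower. Fgf4-i, chr7:152143152-152145907, stood at 64.0, 60.8, 71.1 and 72.1 in mm1179 KO and at 68.1, 61.9, 54.3 and 71.4 in WT, with run 3 at 71.2 to 80.3 and run 4 at 69.2 to 78.4. Fgf4-a, chr7:151954679-151957076, stood at 5.43, 2.16, 43.6 and 48.0 in mm1179 KO and at 55.3, 47.7, 33.2 and 42.7 in WT. At Fgf4-a the mm1179 KO libraries of run 1 were the lowest, and the run 2 libraries of both groups lay between 33.2 and 48.0.

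The Sp8 window was the emptiest. Its 3 regions lay within 13.5 kb, and the longest stretch without a peak in any list, 155.6 kb, made up 51.9% of the window. Sp8 acts upstream of Fgf8 in the ridge, and its GRCm38 neighbours include Sp4, a paralog, and Dnah11 on one side and Abcb5 on the other. Peaks covered 4.42, 1.28, 0.876 and 3.74 kb in mm1179 KO and 1.19 and 2.14 kb in hs72 KO, against 2.168, 0, 0 and 0 kb in WT. Each knockout library of runs 1 and 2 had a call and 3 of the 4 WT libraries had none. The means were 2.58 ± 1.76 kb in mm1179 KO and 0.542 ± 1.08 kb in WT (SD, n = 4 each), and the difference of 2.04 kb did not pass the exact permutation test (p = 0.171).

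The highest percentile in the Sp8 window was 35.1, 11.4, 5.85 and 33.9 in mm1179 KO and 37.0 and 32.9 in hs72 KO, against 15.6, 0, 0 and 0 in WT. The difference between mm1179 KO and WT was 17.7 (21.6 ± 15.1 in mm1179 KO, 3.91 ± 7.81 in WT, SD, n = 4 each; exact permutation p = 0.0857). WT replicate 1 stood above mm1179 KO replicates 2 and 3, so the groups overlapped. With each list reduced to its 26550 highest-scoring peaks, the difference was 0.516 kb in covered length and 2.44 in the highest percentile, and with a minimum score of 100 both were 0, since no peak of the window in these 8 lists reached that score.

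Sp8-b, chr12:120084424-120088900, a consensus region of 4477 bp, and Sp8-c, chr12:120091314-120094407, were both called in each run 4 list and in no run 3 list. Peaks that overlapped Sp8-b measured 3258 to 4526 bp in full length in run 4 and 2168 bp in the 1 WT list with a call. Sp8-b stood at 70.1, 54.6, 59.0 and 63.1 in run 4, the highest values of the window. Sp8-c was called in 9 lists, of which 3 were mm1179 KO, 2 were hs72 KO, 4 were of run 4 and none was WT. Sp8-a, chr12:120080917-120082360, was called in 3 run 4 lists alone. The 4 lines therefore had 5.66 to 9.38 kb of this window covered in run 4 and nothing in run 3.

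The window of Dlx5 and Dlx6, a linked pair of homeobox genes with overlapping roles in the ridge, held 5 regions. Sem1 lies beside Dlx6, and Sdhaf3 and Tac1 beyond Dlx5, in GRCm38. Peaks covered 3.20, 1.51, 5.21 and 7.12 kb in mm1179 KO and 3.94 and 4.44 kb in hs72 KO, against 2.85, 4.83, 3.35 and 4.16 kb in WT. The WT values all lay inside the range of mm1179 KO. The means were 4.26 ± 2.43 kb in mm1179 KO and 3.80 ± 0.873 kb in WT (SD, n = 4 each; difference 0.464 kb, exact permutation p = 0.771), and the sign turned without mm1179 KO replicate 4, to -0.488 kb.

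Dlx5/Dlx6-e, chr6:6904856-6907137, was called in 14 lists and had the highest mean WT percentile of the window. It stood at 65.5, 55.6, 54.3 and 73.4 in mm1179 KO and 41.2 and 67.3 in hs72 KO, against 64.6, 60.7, 56.7 and 57.1 in WT. In run 4 it stood at 75.9, 80.1, 78.5 and 76.1, and none of the run 3 lists called it. Dlx5/Dlx6-e shared this set of calls with Fgf8-e and Fgf8-j.

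Dlx5/Dlx6-a, chr6:6735081-6737442, was the region of the window called in most lists, 17 of 18. Its percentile was spread widely, at 7.28, 0, 7.78 and 59.3 in mm1179 KO, 45.4 and 49.8 in hs72 KO and 0.717, 42.8, 32.6 and 71.6 in WT. Dlx5/Dlx6-d, chr6:6829605-6833292 and the widest of the window at 3688 bp, stood at 65.6 to 71.7 in run 4 and at most 20.1 in runs 1 and 2. It was called in 1 of 4 WT lists, at 3.22. Peaks that overlapped it measured 1244 bp in full length in that list, against 3072 to 4800 bp in run 4, so they can reach beyond the region.

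The Trp63 window held 15 regions, spread over 332.8 kb, with no peak at or above the 90th percentile in any list. Trp63 is expressed through the basal layer of the surface ectoderm, not in the ridge alone, and its GRCm38 neighbours are Lpp and Tprg on one side and P3h2 and Cldn1 on the other. Peaks covered 14.8, 9.20, 24.02 and 34.8 kb in mm1179 KO and 26.7 and 34.96 kb in hs72 KO, against 6.79, 12.2, 13.7 and 26.2 kb in WT. In both groups the run 2 libraries lay above the run 1 libraries. The means were 20.7 ± 11.2 kb in mm1179 KO and 14.7 ± 8.19 kb in WT (SD, n = 4 each; difference 6.02 kb, exact permutation p = 0.400). Within runs they were 12.01 kb in mm1179 KO and 9.48 kb in WT in run 1, and 29.4 kb in mm1179 KO and 19.9 kb in WT in run 2.

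The 3 Trp63 regions with the highest mean WT percentile, Trp63-i, Trp63-k and Trp63-n, were of middle rank. As consensus regions they were 6259, 4277 and 2605 bp wide, against a median of 2605 bp in the window. Peaks at Trp63-i, chr16:25830740-25836998, measured 1190, 2156, 3764 and 4663 bp in full length in WT. The region stood at 53.5, 0, 73.5 and 76.1 in mm1179 KO and 75.3 and 79.2 in hs72 KO. In WT it stood at 19.3, 53.3, 71.4 and 68.3. In run 3 it stood at 75.2, 84.3, 82.9 and 75.6, and in run 4 at 76.4, 76.5, 76.8 and 69.9. The lowest values were those of run 1.

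Trp63-k, chr16:25841898-25846174, was called in 17 lists and stood at 57.0, 0, 57.4 and 50.7 in mm1179 KO and 26.1, 35.1, 50.8 and 44.6 in WT. Trp63-n, chr16:25876256-25878860, was called in 17 lists too, at 17.96, 42.5, 43.7 and 51.2 in mm1179 KO and 0, 55.9, 40.5 and 67.9 in WT. In run 3 their means were 66.2 and 65.5. Trp63-d, chr16:25745926-25748418, was the region of the window called in all 18 lists, at 23.3 to 58.7 in mm1179 KO and 20.5 to 52.6 in WT.

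**Figure D2:**
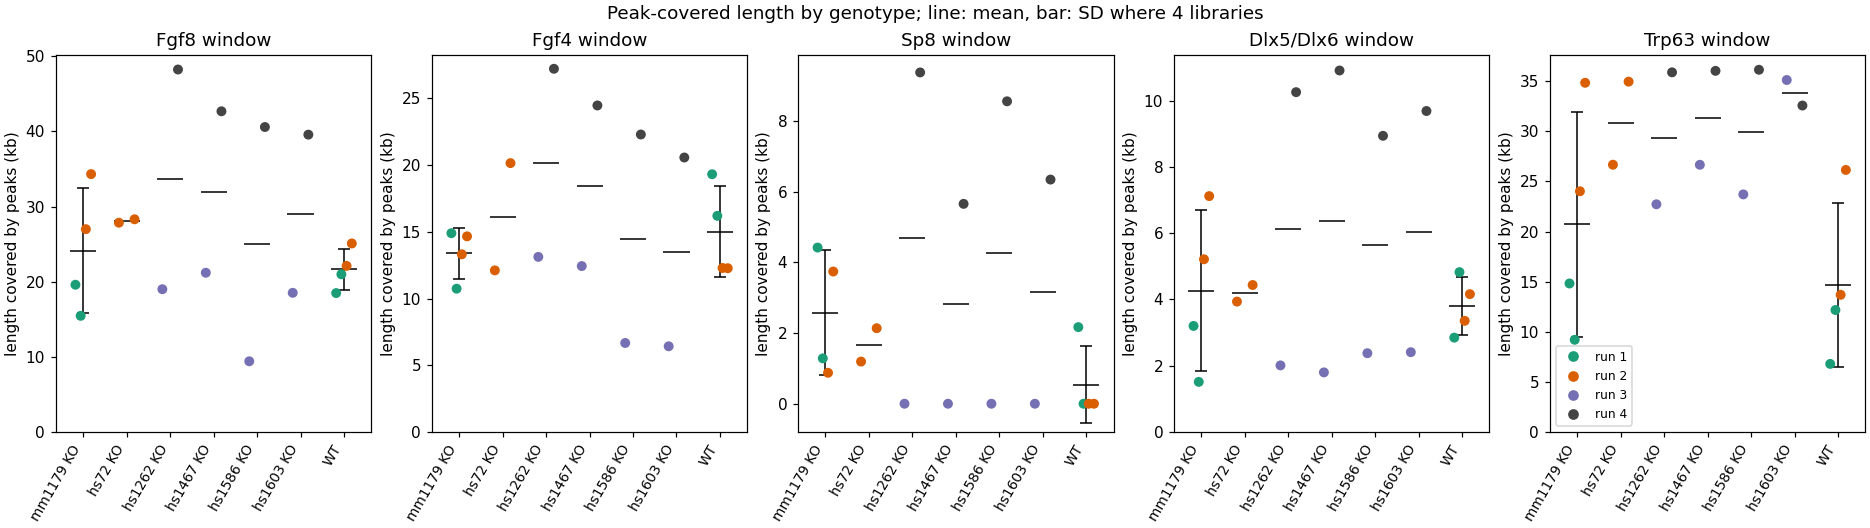
Length covered by peaks in each window, in kb, for each library (points, coloured by run) with the mean and SD of each group, knockout lines left of WT. The mm1179 KO and WT points overlap in all 5 windows, and the run 4 points of hs1262 KO, hs1467 KO, hs1586 KO and hs1603 KO lie above their run 3 points in all but 1 pair, hs1603 KO at Trp63.

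No window and no window region separated mm1179 KO from WT. In covered length the groups overlapped in all 5 windows, against 0.362% of 7734 tiles of 250 kb whose groups did not overlap with mm1179 KO higher and 0.297% with mm1179 KO lower. With covered length scaled to that of the whole list, exact permutation p for the 5 windows was 0.0857 to 0.971. Of the 44 regions that these 8 libraries called at all, none had groups that did not overlap, against 0.396% of 54583 regions of the genome with mm1179 KO higher and 0.777% with mm1179 KO lower. The smallest exact permutation p in the windows was 0.143, at Sp8-c, Trp63-g and Trp63-l, and none was under 0.05, against 1.17% of all regions. After Benjamini-Hochberg adjustment over all 54583 regions no region of the genome passed. With a smallest possible p of 0.0286, a pass would need most regions to stand at that value. The outcome was thus nearly fixed by the design and is no result about the regions. The mean percentile was higher in mm1179 KO at 25 regions and lower at 19, with no genome-wide share of directions given to set beside these counts. A p that misses the threshold does not show that the windows did not differ.

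Both groups called 38 of the 44 regions. Calls by mm1179 KO alone numbered 3, Sp8-c, Dlx5/Dlx6-b and Trp63-l, against 10.9% of the 54583 regions, and calls by WT alone numbered 3, Fgf8-q, Fgf4-d and Trp63-f, against 12.6%. By window, the median difference was 3.01 at Fgf8, -11.1 at Fgf4, 15.1 at Sp8, 3.31 at Dlx5 and Dlx6 and 1.95 at Trp63. The 2 Sp8 regions tested were higher in mean in mm1179 KO, and 6 of 8 Fgf4 regions were lower, though none passed the test. Of those lower, Fgf4-a differed by -47.7 in run 1 and 7.89 in run 2, and Fgf4-f by -34.7 and 7.60. Fgf4-d and Fgf4-e were lower in run 1 alone, and Fgf4-b and Fgf4-h in both runs. Without genome-wide shares, these directions are not read as traits of the windows.

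**Figure D3:**
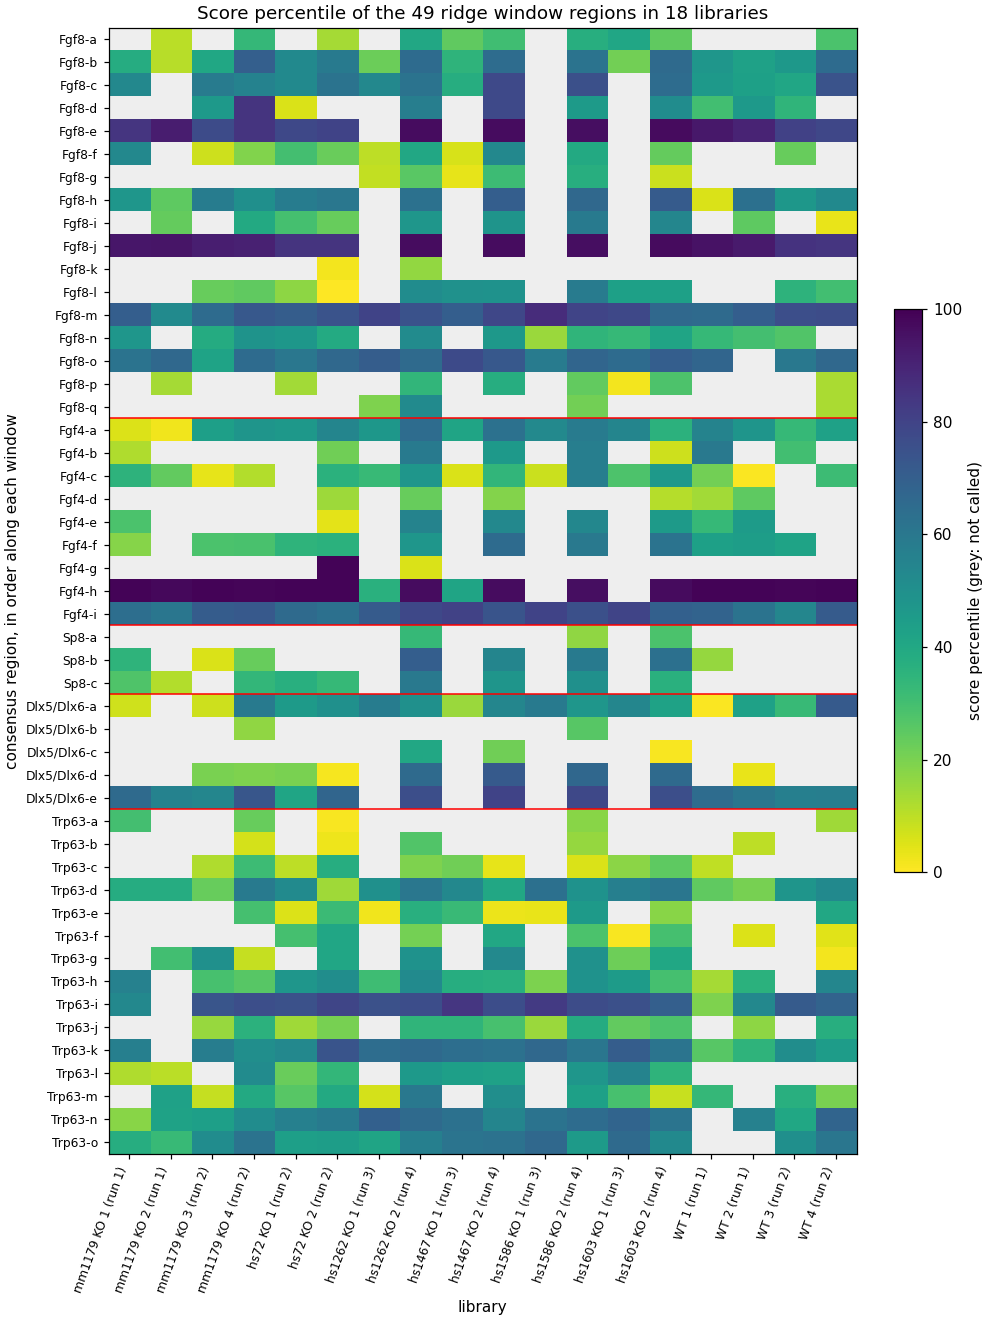
Score percentile of each of the 49 regions (rows, in order along each window) in each of the 18 libraries (columns, knockout lines left of WT), with grey for no call and red lines between windows. Fgf4-h lies between 97.7 and 99.2 in the mm1179 KO and WT columns, while the Sp8 rows hold 1 call in WT.

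For hs72 KO the only comparison within a run was with WT replicates 3 and 4, 2 libraries against 2, where the smallest exact permutation p is 0.333. The mean covered length in hs72 KO exceeded that of these WT libraries by 4.48 kb at Fgf8, 3.85 kb at Fgf4, 1.67 kb at Sp8, 0.428 kb at Dlx5 and Dlx6 and 10.9 kb at Trp63. At Fgf4 the lower hs72 KO library, at 12.1 kb, lay below both of these WT libraries, so the difference there rests on the other hs72 KO library. No window passed (exact permutation p = 0.333 to 1), and the whole hs72 KO lists were of 39460 and 43503 peaks against 38824 and 44647 in these WT lists.

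The same 4 knockout lines gave different pictures of the windows in runs 3 and 4. Over their whole lists, run 3 covered 56.1% to 63.6% of the length covered in run 4 in the same line. In the windows it covered 23.2% to 49.7% at Fgf8, 29.9% to 50.8% at Fgf4, 0% at Sp8 and 16.5% to 26.6% at Dlx5 and Dlx6. At Trp63 it covered 63.3% to 107.8%. Trp63 thus kept more of its covered length in run 3 than the other 4 windows did, in each of the 4 lines.

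Single libraries show the same. At Fgf8 the covered length was 19.003, 21.2, 9.41 and 18.5 kb in run 3 and 48.2, 42.7, 40.6 and 39.6 kb in run 4, in the order hs1262 KO, hs1467 KO, hs1586 KO and hs1603 KO. At Fgf4 it was 13.1, 12.4, 6.67 and 6.42 kb in run 3 and 27.2, 24.5, 22.3 and 20.6 kb in run 4. At Dlx5 and Dlx6 it was 2.01, 1.80, 2.38 and 2.41 kb in run 3 and 10.3, 10.9, 8.94 and 9.69 kb in run 4. Run 3 lay below run 4 without overlap in these 3 windows. At Trp63 it was 22.7, 26.7, 23.7 and 35.1 kb in run 3 and 35.9, 36.04, 36.1 and 32.6 kb in run 4, where the 2 runs overlapped.

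**Figure D4:**
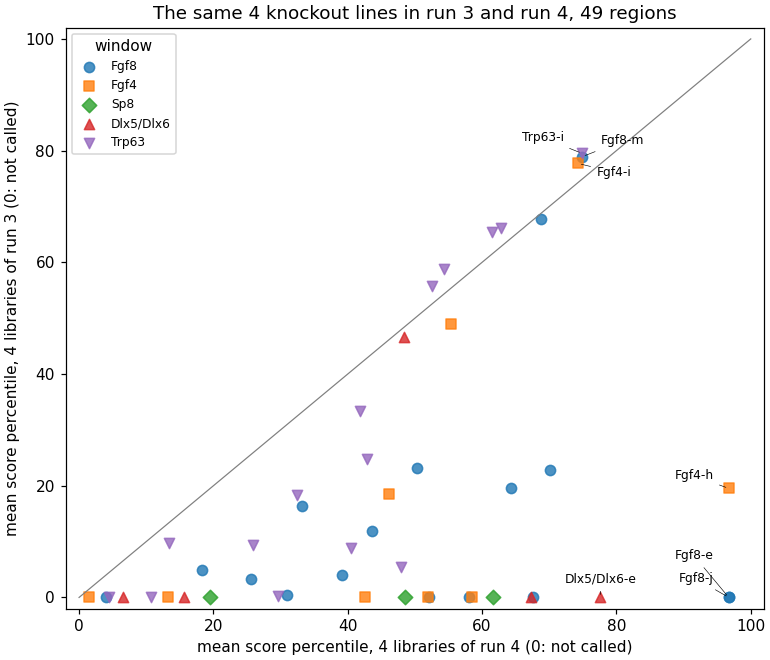
Mean score percentile of each of the 49 regions over the 4 run 3 libraries (y axis) and the 4 run 4 libraries of the same knockout lines (x axis), coloured by window, with a line of equal values and 0 standing for no call. Trp63-i, Fgf8-m and Fgf4-i lie near 75 to 80 in both runs, while Fgf8-e and Fgf8-j lie at 96.7 in run 4 and at 0 in run 3.

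Regions missing from run 3 included some of the strongest. Of the 49 regions, 20 (40.8%) had no run 3 call, against 40.2% of all regions, and 4, Fgf8-e, Fgf8-h, Fgf8-j and Dlx5/Dlx6-e, were called in all 14 libraries of the other runs and in none of run 3 (8.16%, against 7.03% of all regions). Those shares lay near the genome-wide ones. Among regions called by all 4 WT lists, run 3 missed both window regions with a mean WT percentile between 80 and 90 (25.3% over the genome) and 2 of 6 between 40 and 60 (22.9%). It missed none of 3 between 20 and 40 (21.2%), none of 2 between 60 and 80 (27.1%) and not the 1 between 90 and 100 (12.1%).

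The scale of the score differed between runs as well. In run 4 a block of 5.59% to 6.37% of each list was tied at a score of 3100, which put these peaks at a percentile of 96.5 to 96.9, and 12 window peaks were among them. The tied block held 0.941% to 2.66% of the lists in runs 1 and 2 and at most 0.182% in run 3. The values of Fgf8-e, Fgf8-j and Fgf4-h in run 4, and those of Fgf4-h in 8 of the 10 lists of runs 1 and 2, are therefore those of the block and not of single ranks. The part of run, depth or tied scores in the differences between run 3 and run 4 was not tested.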

How the data were processed

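H3K27ac peak lists of 18 forelimb libraries were used, 1 per library, and the 18 matched inputs were not used here. MACS 1.4.2, Bowtie 0.12.8, cutadapt 1.1, bcl2fastq 2.17 and CASAVA are listed, with build mm9, per the submitters' processing notes. The use of the inputs in peak calling is not given in the sources used here. The deposited lists give a position and the authors' score per peak, from 40 upwards. The score was used only to filter or rank peaks within a list, as a mid-rank percentile. No read counts are given, so depth is unknown and no counting interval was computed.

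A stretch under peaks of 2 or more libraries was a consensus region, and a list called it with an overlap of 1 bp. Lengths of peaks at a region are full lengths of all overlapping peaks and were not cut at its edges. Covered length and the highest percentile of each window, and the percentile of each region, were compared between mm1179 KO and WT in exact permutation tests, two-sided, with 70 arrangements. The region p-values were adjusted by Benjamini-Hochberg over all regions tested. Nothing in the labels gives the replicates as separate litters, so p-values measure the spread between libraries, which may be technical. Named regions were the 3 with the highest mean WT percentile and the widest of each window. Others, named from counts of calls, were chosen after their values were seen. The alternatives tried were a score of at least 100, equal lists cut to the top 26550 peaks, coverage of 50% of a region, tiles of 500 kb, leaving out runs or replicates, and the replicate number as a block. The members, windows and tests were chosen with earlier results of these data known. The code of the region test was checked on shuffled percentiles with planted shifts larger than the percentile scale. Such shifts are found by design, so the check does not show which real differences the test could find. The functions for covered length and consensus regions were checked on small made-up cases. Without an mm9 annotation, the forelimb label was not checked against marker genes, and no peak was assigned to a gene. Coordinates are 1-based, in mm9. Python 3.11.15, numpy 2.4.6, pandas 2.3.3 and matplotlib 3.10.9 were used.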

Additional observations from a re-analysis of the deposited data

Results flagged for a closer look

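In groups of 4 libraries, 12 values stood apart from the other 3 by a gap, relative to the range of the group, above the 95% critical value of Dixon's test. Chance flags about 1 in 20 groups, 62 groups were examined, and several of these values are the same peak seen through different measures. In 6 of the 12 the other 3 values were identical, at no call or at the same number of peaks, which fixes the ratio at its maximum, so that chance rate does not apply to them.

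In mm1179 KO, replicate 2 had no call (percentile 0) at Fgf8-c and none (0) at Trp63-k, where the other 3 libraries had calls, and replicate 4 stood high at Dlx5/Dlx6-a, at 59.3. The list of mm1179 KO replicate 2 was the shortest of runs 1 and 2, with 30719 peaks.

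In WT, replicate 1 was the library with calls in the Sp8 window: 2 peaks covering 2.168 kb, with a highest percentile of 15.6, which was that of Sp8-b (15.6). WT replicate 3 was lowest at the top of the Fgf4 window, at 98.6, which was Fgf4-h (98.6), within 1 percentile of the other 3. WT replicate 2 had 3 peaks in the window of Dlx5 and Dlx6, the additional call being Dlx5/Dlx6-d at 3.22, and WT replicate 4 stood high at Fgf8-c, at 74.3.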

How the results depend on the processing

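Of 173 values recomputed under alternatives, 150 kept their direction and their side of the threshold, 13 moved and 10 differences reversed. The 150 include 20 values, with the replicate number as a block or arrangements within runs, that repeat the main difference by design. They also include differences that kept their direction but shrank, as at Sp8 with equal lists, so the count is no measure of robustness. The smallest p between mm1179 KO and WT was 0.0857 over 125 exact permutation tests; the other 20, with the replicate number as a block or arrangements within runs, cannot fall under 0.05, since their smallest possible p are 0.125 and 0.0556. The causes were not tested. At Sp8 the differences were 0 kb and 0 with a minimum score of 100, and 0.516 kb and 2.44 with lists of 26550 peaks, against 2.04 kb and 17.7. With a minimum score of 100 the covered length at Dlx5 and Dlx6 differed by -0.508 kb and its highest percentile by 0.113, and with lists of 26550 peaks by -0.885 kb and 1.48. Without mm1179 KO replicate 4 the difference in covered length was -0.986 kb at Fgf8 and -0.488 kb at Dlx5 and Dlx6. The highest percentile at Dlx5 and Dlx6 differed by 1.02, 1.48 and 1.57 without mm1179 KO replicates 2 and 3 and WT replicate 4, and that at Trp63 by -2.80 without WT replicate 1. Leaving out each replicate, differences in covered length ran from -0.986 to 5.30 kb at Fgf8, -2.53 to -0.184 kb at Fgf4, 1.43 to 2.61 kb at Sp8, -0.488 to 1.38 kb at Dlx5 and Dlx6 and 1.31 to 9.86 kb at Trp63. Differences in the highest percentile ran from 1.61 to 5.15, -0.570 to -0.0695, 13.2 to 22.9, -4.90 to 1.57 and -2.80 to 11.7 in the same order of windows. In the same settings, window regions whose groups did not overlap numbered 0 to 2 with mm1179 KO higher and 0 to 1 with mm1179 KO lower. Smaller groups separate more easily by chance, and no share over all regions is given for these settings. These counts are therefore not read as a result about the windows. Window regions called in every list numbered 2 with a minimum score of 100 (5.26%, against 13.7% of all regions), 2 with equal lists (5.41%, against 20.5%), 2 where 50% of a region had to be covered (4.08%, against 9.04%), 10 without run 1 (20.4%, against 21.4%) and 10 without run 3 (20.4%, against 29.9%), compared with 4 (8.16%, against 16.5%). With tiles of 500 kb the Dlx5 and Dlx6 window stood above 47.3% of tiles and the Sp8 window above 25.3%. Correlations between mm1179 KO and WT libraries were taken on deviations, not on whole lists. Same-numbered libraries correlated at 0.0734 to 0.262, within the range of all pairs of a run, 0.0690 to 0.272. The numbers were therefore not taken as pairs. Pairs from different runs all correlated negatively, at -0.265 to -0.0636, so libraries of a run moved together. The main tests arrange libraries across runs. Arrangements within runs gave exact permutation p from 0.111 to 0.833. With the replicate number as a block the differences in covered length were 2.42, -1.62, 2.04, 0.464 and 6.02 kb as before, with exact permutation p from 0.125 to 0.875 over all results. The value 0.125 at Sp8, for both measures, is the smallest that 4 pairs can give, so this design could not make a call.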
